A study of Homo sapiens with 4 samples.

Results

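The regions described here are the H3K27ac peaks that the colon cancer line COLO-205 had on chromosome 13, 12078 of the 85576 peaks in its list and of 251138 peaks in the 4 lists of the series. The chromosome was chosen by its number of COLO-205 peaks, so its peak counts and densities are given as a description, without a test, and support nothing by themselves. The series holds 1 ChIP-seq library of each of 4 established human cancer lines, COLO-205 from colon, DU-145 from prostate, and SKOV-3 and OVCAR-3 from ovary. The labels give a medium with FBS for each line, not the same one for all, and the same confluence, and name no treatment. There were no replicates, so the values describe these libraries, and the intervals given are exact Clopper-Pearson 95% intervals that cover counting error only. The chromosome 13 peaks of the other lines, 353 in OVCAR-3, 249 in DU-145 and 147 in SKOV-3, serve as the reference.

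H3K27ac, acetylation of lysine 27 of histone H3, marks active promoters and active enhancers, which are distal elements that raise the transcription of a gene. Chromosome 13 is poor in genes, and gain of its long arm is frequent in colorectal cancer. It carries CDX2, the homeobox factor that specifies intestinal epithelium, and KLF5, a zinc finger factor of proliferating intestinal crypt cells.

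The label of the line was checked against promoter peaks of marker genes, a promoter peak being a peak within 1 kb of the start of a protein-coding transcript. COLO-205 had one at 8 of 12 colon markers, among them CDX2, VIL1, HNF4A and LGALS4, and none at CDX1, CDH17, KRT20 and CEACAM5. DU-145 and OVCAR-3 had 2 of these 12 and SKOV-3 had 0, where 58.8%, 59.6% and 31.0% of all protein-coding genes of the genome had a promoter peak in these lines. COLO-205 also had promoter peaks at 4 of 6 ovarian and Mullerian markers, 4 of 7 prostate markers, 1 of 6 mesenchymal markers and 0 of 5 blood markers. Over all protein-coding genes of the genome, 48.9% had a promoter peak in COLO-205, and CDX2 lies on the chromosome described here. Of the ovarian and Mullerian markers, OVCAR-3 had 6, DU-145 3 and SKOV-3 2. Of the prostate markers, DU-145 had 3, OVCAR-3 2 and SKOV-3 1. COLO-205 thus had the most colon markers of the 4 lines, while its shares of colon and ovarian markers were equal and it had more prostate markers than the prostate line.

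Sequences of the strongest distal peak near CDX2 and of the chromosome are shown first, followed by the bases before the RefSeq starts of KLF5 and CDX2. Distal means farther than 1 kb from every protein-coding start. The 200 bases around each summit were read from GRCh37, plus strand, in lower case, with matches to the searched motifs in capitals.
The strongest distal peak within 100 kb of CDX2 lay at chr13:28527548-28529011, 15692 bp downstream of the start, with a −log10 q of 69.7 and a fold enrichment over the local background of 9.47. Its summit lay in an annotated gene of a type other than protein-coding. The summit window, chr13:28527660-28527859, held 1 ETS match.
CDX2 distal peak: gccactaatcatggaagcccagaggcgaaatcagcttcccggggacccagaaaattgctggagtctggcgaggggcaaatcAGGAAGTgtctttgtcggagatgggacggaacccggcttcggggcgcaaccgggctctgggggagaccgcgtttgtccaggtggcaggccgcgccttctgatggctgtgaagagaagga
The strongest distal peak of the chromosome lay at chr13:91999923-92001539, with a −log10 q of 92.6 and a fold enrichment of 14.4. It is distal only with respect to protein-coding starts, since it covers the start of MIR17HG, the non-coding host gene of the miR-17-92 microRNAs. Its summit window, chr13:92000828-92001027, held 1 SP match.
MIR17HG peak: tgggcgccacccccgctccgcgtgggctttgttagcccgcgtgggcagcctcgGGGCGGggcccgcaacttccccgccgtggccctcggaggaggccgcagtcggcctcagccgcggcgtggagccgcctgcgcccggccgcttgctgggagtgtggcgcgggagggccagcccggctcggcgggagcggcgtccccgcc

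RefSeq gives 2 starts for KLF5 and 1 for CDX2, and the 250 bases before each are printed on the strand of the gene from the GRCh38.p14 table. An exact match placed them on GRCh37. The upstream KLF5 stretch, with 1 CDX match in capitals, matched chr13:73628864-73629113, and no peak of any line overlapped it. The downstream KLF5 stretch, with 1 KLF, 2 SP and 2 NFY matches, matched chr13:73632893-73633142. The nearest COLO-205 peak lay 35 bp away, the nearest OVCAR-3 peak 42 bp, the nearest SKOV-3 peak 150 bp and the nearest DU-145 peak 245 bp. The CDX2 stretch, with 1 CDX, 1 FOXA and 2 NFY matches, matched chr13:28543453-28543702 on the minus strand. A COLO-205 peak lay 25 bp from it, and the nearest peaks of DU-145, OVCAR-3 and SKOV-3 were 14599 bp, 33478 bp and 168653 bp away.
KLF5 upstream start: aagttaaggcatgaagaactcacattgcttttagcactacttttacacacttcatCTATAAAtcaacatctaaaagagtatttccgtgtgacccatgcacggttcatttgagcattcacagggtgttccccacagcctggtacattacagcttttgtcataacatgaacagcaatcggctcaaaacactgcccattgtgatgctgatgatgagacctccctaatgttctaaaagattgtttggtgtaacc
KLF5 downstream start: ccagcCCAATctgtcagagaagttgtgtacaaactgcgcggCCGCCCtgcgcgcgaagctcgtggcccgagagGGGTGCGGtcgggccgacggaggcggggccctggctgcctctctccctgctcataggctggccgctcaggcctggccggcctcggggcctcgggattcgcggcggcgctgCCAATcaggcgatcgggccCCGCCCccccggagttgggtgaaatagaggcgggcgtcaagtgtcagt
CDX2 start: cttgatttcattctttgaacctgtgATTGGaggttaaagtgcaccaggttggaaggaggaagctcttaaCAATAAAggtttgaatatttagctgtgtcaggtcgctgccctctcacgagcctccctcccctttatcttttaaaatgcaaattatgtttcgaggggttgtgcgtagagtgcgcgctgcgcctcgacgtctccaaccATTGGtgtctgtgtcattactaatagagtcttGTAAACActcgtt

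Chromosome 13 held 126 COLO-205 peaks per Mb of sequence, 4.11 times the median chromosome of the same list and the highest of 23 chromosomes. The same ratio was 0.284 in SKOV-3 (rank 21), 0.142 in OVCAR-3 (rank 23) and 0.0934 in DU-145 (rank 22). In COLO-205, distal peaks were 5.47 times the median chromosome and peaks near protein-coding starts 1.11 times. For peaks near starts the ratio was 0.386 in SKOV-3, 0.304 in OVCAR-3 and 0.252 in DU-145. COLO-205 peaks covered 4.56% of the chromosome. Such a chromosome was not particular to COLO-205. In DU-145, chromosome 14 held 4.38 times the median chromosome, 5.60 times for distal peaks and 1.39 times for peaks near starts, and 8.16% of its peaks lay near a start. On chromosome 13 of COLO-205 the ratio was 9.39 among peaks with a −log10 q of 10 or more, and 10.7 when the same number of peaks was taken from each library.

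**Figure D1:**
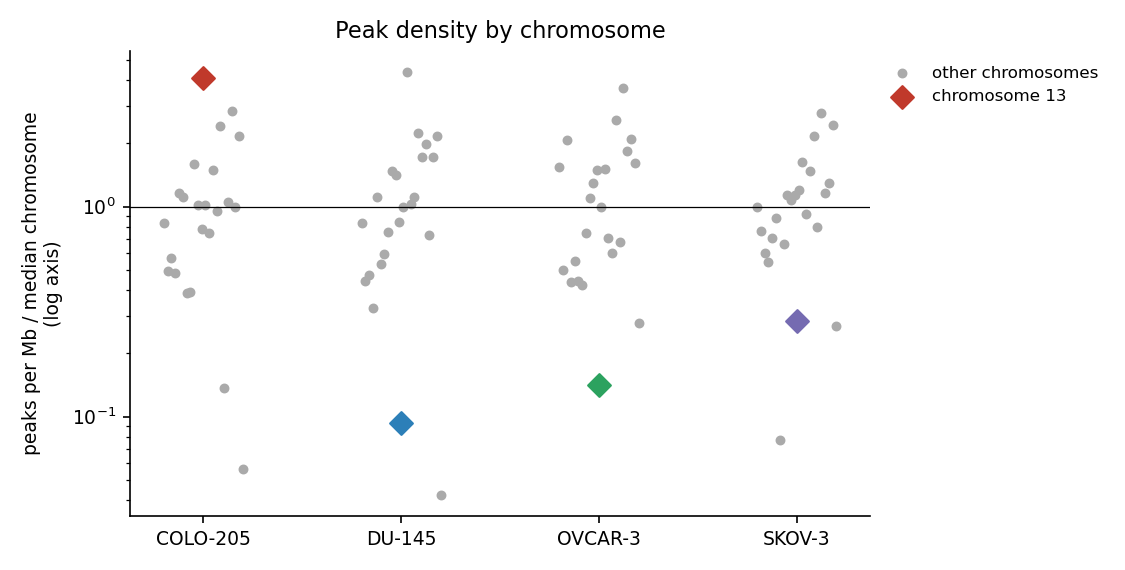
Peaks per Mb of each chromosome divided by the median chromosome of the same list (log axis), with chromosome 13 as a diamond and the 22 other chromosomes as grey points. Chromosome 13 is the highest point in COLO-205, at 4.11, and lies below the median chromosome in the other lines.

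The peaks were mostly narrow and of moderate strength, and few lay near protein-coding starts. The median width was 287 bp, against 281 bp on the other chromosomes of COLO-205, and 294 peaks (2.43%) reached 1000 bp. The median fold enrichment was 5.57 and the median −log10 q 10.9. Peaks with a −log10 q from 10 to 20 made up 51.8% of the chromosome 13 peaks and 22.8% of those elsewhere, while peaks of 50 and over made up 0.513% and 0.818%. Within 1 kb of a protein-coding start lay 542 peaks (4.49%, 4.13% to 4.87%), against 17.8% elsewhere in COLO-205. In the other lines the order was the opposite, with 69.5% on chromosome 13 against 23.8% elsewhere in DU-145, 54.1% against 23.4% in OVCAR-3 and 67.3% against 51.8% in SKOV-3. The COLO-205 share is tied to the choice of the chromosome, and nothing is read from it. Per Mb of sequence, the excess over the median chromosome was mostly of distal peaks, 5.47 times against 1.11 times for peaks near starts. Counted by gene, promoter peaks were also more frequent in COLO-205, at 86.8% of the chromosome's protein-coding genes against 48.9% over the genome. Farther than 100 kb from any protein-coding start lay 4158 peaks (34.4%), and 1261 of them were over 500 kb away.

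Summits in introns of protein-coding genes made up 37.5% of the peaks, where such introns take 32.5% of the chromosome's sequence. A further 4.32% lay in exons (2.18% of the sequence), 15.9% in other gene types (17.6%) and 42.3% in no annotated gene (47.8%). Exons and introns of protein-coding genes thus held more of the peaks than of the sequence, and other gene types and sequence outside genes held less.

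Few of them were found in another line. Of the 12078 peaks, 334 (2.77%, 2.48% to 3.07%) overlapped a peak of at least 1 other line, against 28.9% of the peaks elsewhere. Read from the other lists, COLO-205 peaks overlapped 82.3% of the 249 DU-145 peaks of the chromosome, 76.5% of the 353 OVCAR-3 peaks and 87.1% of the 147 SKOV-3 peaks. Elsewhere in the genome these shares were 17.8%, 19.7% and 50.6%. Nothing is read from the shares in either direction, since they depend on the number of COLO-205 peaks by which the chromosome was chosen. The shares by class carry the same limit, since the other lists hold only 249, 353 and 147 peaks of the chromosome. On chromosome 13 only the strongest class was mostly shared. Of the 62 peaks with a −log10 q of at least 50, 56 overlapped another line and 53 lay near a protein-coding start. From 20 to 50, 113 of 777 overlapped another line (14.5%), and from 10 to 20 it was 122 of 6262 (1.95%). From 5 to 10 it was 39 of 4811 (0.811%), and below 5 it was 4 of 166 (2.41%). On the other chromosomes these shares were 46.1%, 53.1%, 39.7%, 23.1% and 20.6%, from the strongest class down. There, 31.6% of the strongest class lay near a protein-coding start.

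**Figure D2:**
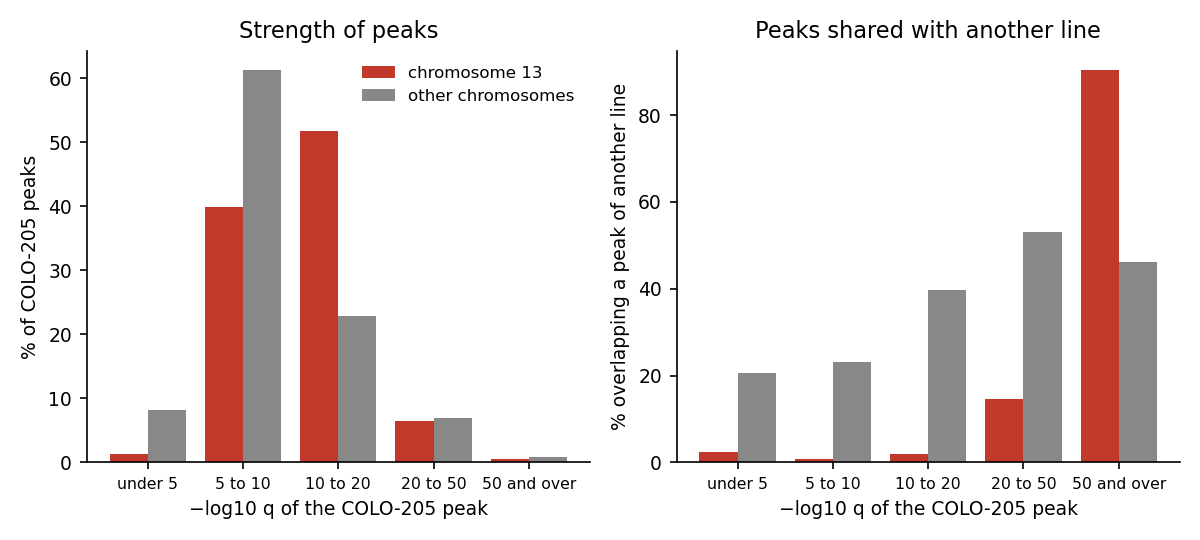
Share of COLO-205 peaks by −log10 q class (left) and share of each class that overlaps a peak of another line (right), on chromosome 13 (red) and on the other chromosomes (grey). On chromosome 13 the class from 10 to 20 is the most frequent (51.8%), and 90.3% of peaks of 50 and over are shared.

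Along the chromosome the COLO-205 peaks were uneven. Over the 92 windows of 1 Mb without gaps in the assembly, the count ran from 5 to 517 with a median of 80.5, and none was empty. In 18 of these windows no other line had a peak. Of these windows, the 5 with the most peaks were chr13:113000001-114000000 with 517 peaks (26.0% of its bases), which holds the clotting factor genes F7 and F10, chr13:111000001-112000000 with 415, chr13:100000001-101000000 with 373, which holds ZIC2 and ZIC5, chr13:20000001-21000000 with 340, which holds the gap junction genes GJB2 and GJB6, and chr13:21000001-22000000 with 339, which holds LATS2. The 5 with the fewest were chr13:83000001-84000000 with 5, chr13:84000001-85000000 with 25, chr13:35000001-36000000 with 38, chr13:94000001-95000000 with 39 and chr13:56000001-57000000 with 42. Among windows with assembly gaps, chr13:112000001-113000000 held 485 peaks in 850000 bases (27.7% of them covered), and chr13:114000001-115000000 held 9 in 800000.

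Peaks were also present in windows without the start of a protein-coding gene, counting 1 start per gene. Some of these windows lie in the body of a gene. The window chr13:75000001-76000000 is among them, and 1 of its COLO-205 peaks lay within 1 kb of another protein-coding transcript start. The 22 windows without such a gene start held 1194 COLO-205 peaks, from 5 to 78 with a median of 55.0. In these windows DU-145 had 1 peak, OVCAR-3 had 9 and SKOV-3 had 3. In such windows on the 22 other chromosomes, the COLO-205 median was between 0 and 15.0 except on chromosome 22, whose only window held 199. Single windows held up to 86 peaks on chromosome 1, 89 on chromosome 6 and 101 on chromosome 10. The 30 windows with at least 5 protein-coding gene starts had a median of 185. Across the 92 windows, COLO-205 peak counts had a Spearman correlation of 0.75 with the number of protein-coding gene starts and 0.89 with GC content. The correlations with the peaks of DU-145, OVCAR-3 and SKOV-3 were 0.80, 0.76 and 0.77. These are descriptions over neighbouring windows of the same libraries.

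**Figure D3:**
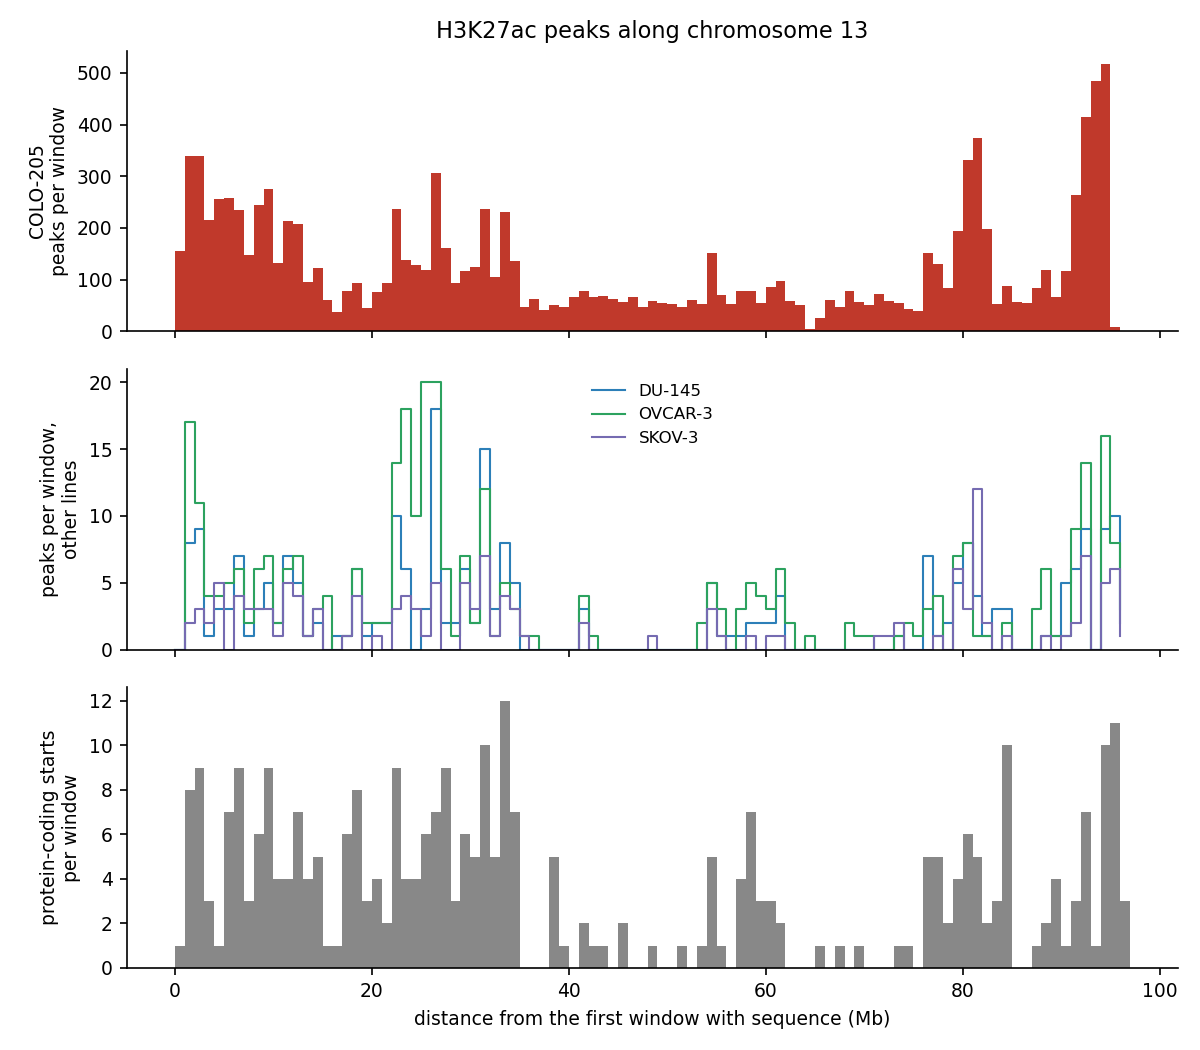
Peaks per 1-Mb window of chromosome 13 in COLO-205 (top) and the other lines (middle), and protein-coding gene starts per window (bottom), by distance from the first window with sequence. Each gene counts with 1 start, and windows with assembly gaps hold fewer bases. COLO-205 counts reach 517, and fall to 9 and 1 in the last windows, where the counts of the other lines are of the same order.

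A pair of interruptions was singled out after the counts were seen. The longest stretch without a COLO-205 peak and without assembly gaps was chr13:83141282-84570126, 1428845 bp that hold the start of SLITRK1, a neuronal membrane protein gene. The 1 Mb before it held 50 COLO-205 peaks and the 1 Mb after it 62, with no protein-coding gene start in either. The next longest gap-free stretch outside the end of the chromosome was 138809 bp. Inside this stretch OVCAR-3 had 1 peak and the other lines 0, and in the 1 Mb on either side the other lines had 0.

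At the distal end, the COLO-205 peaks became sparse. The windows of 100 kb from chr13:113300001 to chr13:113800000 held 64, 71, 70, 81 and 71 peaks, the next held 18, and the following one 1. The last peak of the dense stretch, chr13:113863953-113864324, lay at CUL4A, a ubiquitin ligase scaffold. From chr13:113900001 to the end of the chromosome, 1.01 Mb of sequence with 15 protein-coding genes held 11 COLO-205 peaks (10.9 per Mb), where the 1 Mb before it held 553. DU-145 had 13 peaks there, OVCAR-3 15 and SKOV-3 8, more per Mb than on the rest of the chromosome in each (12.9 against 2.5, 14.9 against 3.57 and 7.92 against 1.47). Of the 11 peaks, 6 lay near a protein-coding start. They included LAMP1, a lysosomal membrane protein (−log10 q 4.51), TFDP1, the partner of E2F factors (10.3), and UPF3A, a nonsense-mediated decay factor (22.0, the highest of the 11). The local background at the 11 summits had a median of 9.74 tags, against 6.30 in the 1 Mb before. There, only 46 of the 553 peaks lay near a protein-coding start, so the sites differ. The same medians at the peaks of the other lines were 16.3 against 14.9 in DU-145, 12.5 against 7.61 in OVCAR-3 and 7.94 against 9.34 in SKOV-3.

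The height of the signal was compared at sites common to all lines. The fold enrichment and p-value fix the number of tags piled up at a summit and the local background that the caller compared it with. At the 73 COLO-205 peaks of chromosome 13 found in all 4 lists, the median pileup was 89.0 tags in COLO-205, against 48.0 at 5468 such peaks on other chromosomes, a log2 ratio of 0.89 that ranked highest of 23 chromosomes. The next in COLO-205 was chromosome 20, at 0.50, and the highest in the other lines was chromosome 3 in OVCAR-3 (0.48), chromosome 14 in DU-145 (0.37) and chromosome 20 in SKOV-3 (0.27). On chromosome 13 the ratio was −0.37 in DU-145 (61.0 against 79.0 tags), −0.48 in OVCAR-3 (82.0 against 114) and 0.14 in SKOV-3 (44 against 40.0). The pileup at these shared sites was higher on chromosome 13 than elsewhere in COLO-205 and lower in DU-145 and OVCAR-3. The difference was not tested. Peaks are called by pileup over background, so the COLO-205 value is not independent of the choice of the chromosome by its peaks. Of the 73 peaks, 3 lay in the sparse end of the chromosome, where the COLO-205 median was 40.0 tags, against 90.0 at the other 70. The same medians were 57.0 and 61.5 in DU-145, 56.0 and 82.0 in OVCAR-3 and 33.0 and 44 in SKOV-3.

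The background differed little between lines in this respect. Its log2 ratio of chromosome 13 to other chromosomes at these peaks was 0.27 in COLO-205, 0.30 in both ovarian lines and 0.24 in DU-145. At summits within 100 bp of each other in 2 lists, the backgrounds of COLO-205 and DU-145 had a Spearman correlation of 0.96 over 118 summits of chromosome 13, and the ratio of COLO-205 to DU-145 had a median of 0.715 there and 0.713 over 8009 summits elsewhere. The ratio to OVCAR-3 was 0.937 in both places, and that to SKOV-3 1.48 in both. The background was therefore nearly proportional between lines, with nearly the same factor on chromosome 13 as elsewhere. Which control library each line was called against is not given in the sources used here. DNA copy number was not measured in these files, and its part in the pileup was not tested.

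**Figure D4:**
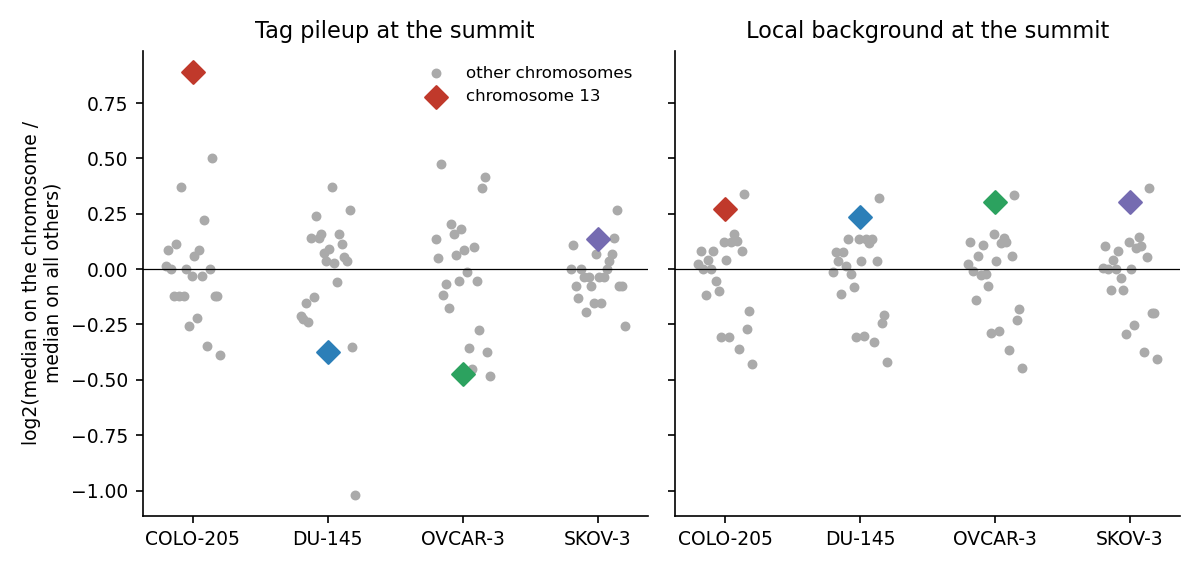
Median pileup (left) and median local background (right) on each chromosome divided by the median on all others (log2), at peaks found in all 4 lists; chromosome 13 is the diamond and grey points are the other chromosomes. The pileup of chromosome 13 is at 0.89 in COLO-205 and below 0 in DU-145 and OVCAR-3, while its background lies between 0.24 and 0.30 in every line. The chromosome was chosen for its number of COLO-205 peaks.

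The 10 peaks with the highest −log10 q, from 106 to 88.7, lay at HMGB1, a chromatin protein, ZMYM2, STK24, RBM26, RNF6, TPT1, TUBGCP3, INTS6, MIR17HG and PARP4, each within 1 kb of its start. In 9 of the 10 the peak overlapped a peak of all the other lines, and that of ZMYM2 overlapped DU-145 and OVCAR-3 only. The widest peak, of 3702 bp, was an intergenic peak whose nearest start was that of SPATA13, at 30578 bp. It was followed by peaks at ZIC5 (3596 bp), 8147 bp from SOX1 (3534 bp), at PDX1 (3479 bp), PCDH8 (3362 bp), 1870 bp from IRS2 (3166 bp), at SOX21 (2892 bp), at ZIC2 (2621 bp), in a gene of another type 108449 bp from KCNRG (2474 bp) and in NAXD (2382 bp). The peak 108449 bp from KCNRG covers the listed start of DLEU2, a gene of the tumour suppressor list given below. Of the 10 widest peaks, 6 overlapped no peak of another line.

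Most genes of the chromosome had a promoter peak in COLO-205. Of 319 protein-coding genes, 277 did (86.8%, 82.6% to 90.3%), where 48.9% of all 19756 protein-coding genes of the genome did in this line. The same share was 42.9% on chromosome 13 against 58.8% over the genome in DU-145, 48.9% against 59.6% in OVCAR-3 and 27% against 31.0% in SKOV-3. A promoter peak in COLO-205 and no other line was found at 99 genes (31.0%), against 6.03% over the genome, and nothing is read from this share because the chromosome was chosen for its peaks. A promoter peak in DU-145, OVCAR-3 and SKOV-3 and not in COLO-205 was found at 0 of 319 genes (up to 1.15%), against 3.97% over the genome, and nothing is read from this share for the same reason. At 67 genes all 4 lines had one, and at 37 no line did. At the 67 genes the median −log10 q was 41.5 in COLO-205, 32.2 in OVCAR-3, 15.7 in DU-145 and 12.2 in SKOV-3, values that are not scaled between libraries.

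The 10 genes with the strongest promoter peaks found only in COLO-205 were OXGR1, a receptor of oxoglutarate (−log10 q 57.8), CRYL1 (57.6), FGF9, a fibroblast growth factor (37.8), TPTE2 (35.3), N4BP2L1 (34.5), GGACT (33.6), PDX1 (31.2), IL17D, a cytokine of the interleukin 17 family (29.8), MBNL2, a splicing regulator (27.3), and TNFSF11, the ligand RANKL (23). Of the 99 genes, 86 had a −log10 q of at least 10 and 15 of at least 20, with a median of 14.

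Of 5 intestinal transcription factors and their neighbours, COLO-205 had promoter peaks at all 5, near its 86.8% of all genes of the chromosome, and each of the other lines at KLF5 and KLF12 alone. The −log10 q at KLF5 was 48.0 in COLO-205, 73.9 in OVCAR-3, 19.7 in SKOV-3 and 10.3 in DU-145. At CDX2 it was 19.2 in COLO-205, at a peak 973 bp from the start, and 12.1 at the peak 25 bp from it. No other line had a promoter peak at CDX2. The neighbouring homeobox genes PDX1 (31.2), which specifies pancreas and duodenum, and GSX1 (15.0), a neural factor, were likewise marked only in COLO-205. Promoter peaks found only in COLO-205 stood at 31.0% of all genes of the chromosome.

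Around KLF5, COLO-205 had 68 peaks within 100 kb of the start, of which 67 were distal, over 22441 bp. DU-145 had 3, OVCAR-3 had 3 and SKOV-3 had 1. The promoter peak, chr13:73633178-73634129, was the strongest of the 68, and the median −log10 q was 11.2. Around CDX2, COLO-205 had 75 peaks within 100 kb over 35541 bp, DU-145 had 1, OVCAR-3 had 1 and SKOV-3 had 0. The strongest lay 15692 bp downstream and not at the promoter, with a −log10 q of 69.7, and the 1 DU-145 peak overlapped it (5.53). Peaks of −log10 q 39.8 and 33.7 lay 2433 and 1453 bp from the start of PDX1. Distal peaks within 100 kb numbered 67 for KLF5 and 70 for CDX2, against a median of 30.0 over all protein-coding genes of the chromosome and 112 around ZIC2, 105 around SOX1 and 104 around F7.

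**Figure D5:**
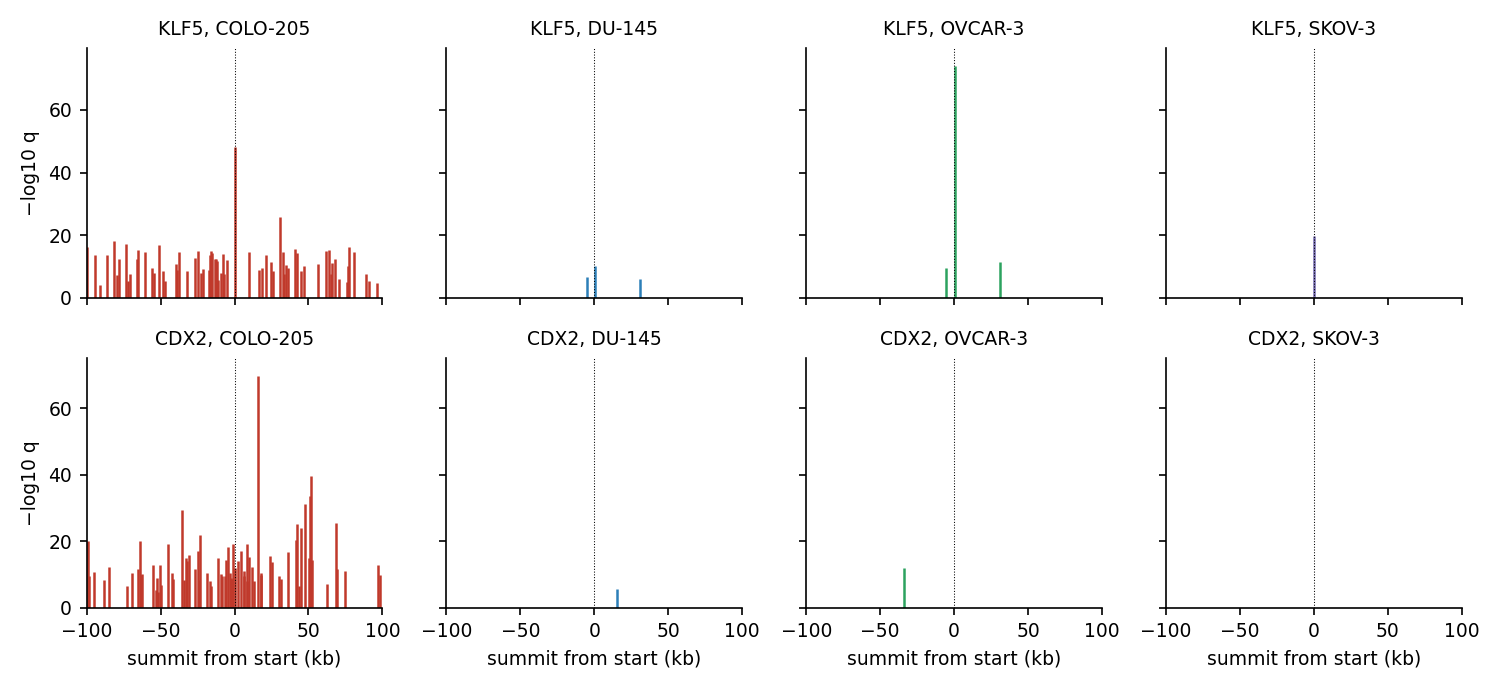
Peaks within 100 kb of the start of KLF5 (top) and CDX2 (bottom) in each line, by distance of the summit from the start in the direction of the gene (kb) and −log10 q; the dotted line is the start. COLO-205 has 68 and 75 peaks, and the other lines 0 to 3.

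Of 11 genes proposed as targets of 13q gain in colorectal cancer, COLO-205 had promoter peaks at all 11, DU-145 at 9, OVCAR-3 at 10 and SKOV-3 at 6, where the shares over all genes of the chromosome were 86.8%, 42.9%, 48.9% and 27%. The −log10 q in COLO-205 was 66.9 at the shared start of LNX2 and POLR1D, 92.6 at MIR17HG (94.4 in OVCAR-3) and 40.5 at CDK8, the Mediator kinase, which had no promoter peak in DU-145 or SKOV-3. It was 38.4 at the shared start of DIS3, an RNA exosome nuclease, and PIBF1, and 49.0 at IRS2, an insulin receptor substrate. At CUL4A it was 25 in COLO-205, 72.1 in OVCAR-3, 33.2 in DU-145 and 29.3 in SKOV-3. At TFDP1 it was 10.3 in COLO-205, 25.7 in OVCAR-3, 19.3 in DU-145 and 10.1 in SKOV-3. These values are not scaled between libraries, and OVCAR-3 was also higher than COLO-205 at KLF5 and MIR17HG.

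Of 13 epithelial and intestinal genes, 12 had a promoter peak in COLO-205, 5 in OVCAR-3, 3 in DU-145 and 1 in SKOV-3. OLFM4, a marker of intestinal stem cells (15.8), and SLC15A1, the peptide transporter of the small intestine (12.0), had one in COLO-205 alone, EFNB2 (31.8) and LMO7 (18.5) also in OVCAR-3, and the ileal bile acid transporter SLC10A2 in no line. All 6 tumour suppressor genes were marked in COLO-205, DU-145 and OVCAR-3, and 5 in SKOV-3, with −log10 q of 39.9 at RB1 and 41.9 at BRCA2 in COLO-205. Of 31 widely expressed genes, COLO-205 marked 31, DU-145 26, OVCAR-3 29 and SKOV-3 20. Beside these lists, the shares over all genes of the chromosome were 86.8% in COLO-205, 48.9% in OVCAR-3, 42.9% in DU-145 and 27% in SKOV-3.

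Genes of other tissues were marked as well. Of 21 neural and developmental genes, 19 had a promoter peak in COLO-205, 3 in each ovarian line and 2 in DU-145. The −log10 q was 61.4 at ZIC2, 51.6 at ZIC5, 22.2 at SOX1, a factor of neural progenitors, 12.8 at SOX21 and 8.85 at POU4F1, a factor of sensory neurons. SLITRK1 and SLITRK6 had none. Of 12 blood, endothelial and stromal genes, 8 had one in COLO-205, 2 in each ovarian line and 0 in DU-145, with 20.1 at FLT3, a receptor of blood progenitors, and 14 at LCP1, a leukocyte actin bundler, and none at POSTN or ALOX5AP. Of 4 clotting and liver genes, F7 (15.0), F10 (16.5) and PROZ (10.3) had one in COLO-205 alone, as did 31.0% of all genes of the chromosome. The counts of these lists stand beside the shares over all its genes, 86.8% in COLO-205, 48.9% in OVCAR-3, 42.9% in DU-145 and 27% in SKOV-3, and genes of neurons, blood and liver were marked along with intestinal genes. The mark was not compared with transcription here.

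The sequence at distal summits was rich in guanine and cytosine. The median GC content of the 200 bases around 11536 distal summits was 55.5%, against 37.5% over all 200-bp tiles of the chromosome, and 59.5% at distal summits elsewhere in COLO-205. Motifs were searched on both strands by their letters, and a match is a description of the sequence only. KLF and SP letters can overlap in G-rich sequence. SP (GGGCGG) was found in 13.3% of the distal windows and 2.02% of tiles, and KLF (GGGTGNGG) in 11.3% and 3.56%. The other motifs were rarer at these summits than in tiles. CDX (TTTATNG) was in 2.48% of windows and 16.9% of tiles, and FOXA (TGTTTAC) in 0.798% and 3.51%. HNF1 (GTTAATNAT) was in 0.113% and 1.07%, and NFY (CCAAT) in 11.1% and 28.5%. AP-1 (TGANTCA) was in 2.88% and 6.50%, and ETS (AGGAAGT) in 1.97% and 3.88%. The GATA motif (AGATAAG) was in 0.633% and 3.10%. HNF4 (CAAAGTCCA) was in 0.113% of windows and 0.246% of tiles. TCF/LEF (ATCAAAG) was in 0.737% of windows and 3.62% of tiles. The shares at distal summits elsewhere in COLO-205 were 17.7% for SP, 14.7% for KLF, 2.09% for CDX and 2.75% for AP-1.

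Many distal summits lay in repeated sequence. This was looked at after the data were seen. A window was counted as repeated where its words of 20 bases occur at a median of at least 10 places on the chromosome, a median that was 1.00 for the CDX2 and MIR17HG peak sequences above. This held for 4364 of the 11536 distal windows (37.8%), 7.56% of the promoter windows and 5.52% of 4780 tiles. It held for 20.5% of the 674 distal windows whose −log10 q reached 20 and 38.9% of the weaker ones. In the other lines it held for 5 of 76 distal windows in DU-145, 31 of 162 in OVCAR-3 and 4 of 48 in SKOV-3. Among distal windows on the other chromosomes of COLO-205, counted by the same words on chromosome 13, it held for 20.9%, and for 25.5% of those whose −log10 q reached 20. Windows of chromosome 13 count their own copy and copies nearby, and windows elsewhere do not. These shares are therefore not on the same scale as those of chromosome 13. How reads from repeats were placed is not given in the sources used here, and the part of repeats in the number of peaks was not tested.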

How the data were processed

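H3K27ac ChIP-seq of 4 cancer cell lines, 1 library per line, was analysed from the deposited peak lists. The authors mapped reads to hg19 with Bowtie2 2.1.0 and called narrow peaks per library with MACS2 2.1.0.20150603. The deposited columns are a −log10 q, a −log10 p, a score and a ratio, the fold over local background, computed by the authors' caller and not scaled between libraries. The study's methods describe merging of peaks less than 350 bp apart, and the deposited lists are unmerged, so merging was an alternative. The lists give no read totals. They cover 30.4 Mb in COLO-205, 39.6 Mb in DU-145, 35.9 Mb in OVCAR-3 and 5.39 Mb in SKOV-3, and the lowest local background in each, which scales with depth, was 2.36, 3.31, 2.52 and 1.59 tags.

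Coordinates are GRCh37, counted from 1. Promoter peaks lay within 1 kb of the start of a protein-coding transcript of a protein-coding gene in GENCODE 44 lifted to GRCh37, for MIR17HG and DLEU2 of any transcript, and overlap means at least 1 bp. This choice of starts was made after the shares under other choices were seen, and those are given below. The pileup was taken as the whole number whose Poisson p fitted the deposited −log10 p within 0.001, found for at least 99.9% of peaks in every list, and the step was tested on simulated data. The sparse end begins after the last 100-kb window with at least 10 peaks. That limit, the peak-free stretch, the comparison of backgrounds between lines and the count of repeated words were chosen after the data were seen. The alternatives tried were stricter −log10 q, merged peaks, equal numbers of peaks, other start distances and definitions, and other overlap rules. The genes named are KLF5, CDX2, members of the gene lists, the 10 strongest and 10 widest peaks, the 5 windows with the most and the 5 with the fewest peaks among those without assembly gaps, and the 10 strongest promoters found only in COLO-205, and marker genes of the lines. UPF3A, outside this rule, was named after its value was seen. The members and lists were chosen with earlier results of these data known. The sequence of 1 distal peak is not reported. SPERT, a list member, was not found by name in the annotation. Python 3.11.15, numpy 2.4.6, pandas 2.3.3, scipy 1.17.1 and matplotlib 3.10.9 were used.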

Additional observations from a re-analysis of the deposited data

Results flagged for a closer look

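These values lay in opposite directions in COLO-205 and in other lines, and the differences were not tested, since each line has 1 library. Peak density on chromosome 13 was 4.11 times the median chromosome in COLO-205 and below it in DU-145 (0.0934), OVCAR-3 (0.142) and SKOV-3 (0.284), and the chromosome was chosen for this value. The share of peaks near a protein-coding start was lower on chromosome 13 than elsewhere in COLO-205 (a difference of −13.3 percentage points) and higher in DU-145 (45.6), OVCAR-3 (30.7) and SKOV-3 (15.6). This share is not separate from the density, since the peaks in excess per Mb over the median chromosome are mostly distal. Nothing is read from the share for that reason. At peaks found in all 4 lists, the pileup on chromosome 13 was compared with that on other chromosomes. Its log2 ratio was 0.89 in COLO-205, −0.37 in DU-145 and −0.48 in OVCAR-3, while SKOV-3, at 0.14, had the sign of COLO-205. The COLO-205 value is not independent of the choice of the chromosome.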

How the results depend on the processing

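Of 34 alternatives for 6 results, 18 left a share within its 95% interval or another value within 1.5 times, 15 moved it past that limit and 1 reversed it. The cause of these changes was not tested. The density of 4.11 rose to 9.39 when only a −log10 q of 10 or more was kept, and to 10.7 with 14001 peaks from each library. The share of peaks near a protein-coding start, 4.49%, became 7.25% within 2.5 kb, 11.4% with starts of all gene types, 5.75% at a −log10 q of 10 or more, 3.98% with merged peaks and 8.36% with equal numbers of peaks. With settings added after the data were seen, it was 3.20% for canonical transcripts (14.1% elsewhere) and 6.30% for all transcripts of protein-coding genes (21.9% elsewhere), below the share elsewhere with each. The share overlapping another line, 2.77%, became 2.16% with at least 50% of the peak, 3.18% within 350 bp and 3.55% with equal numbers. The 277 genes with a promoter peak stayed between 209 and 283. The difference in median fold enrichment, 0.982, was 0.373 at that stricter limit. The difference in median width, 6 bp, became 10 bp with merged peaks and 13 bp for distal peaks, and reversed to −50.0 bp at the stricter limit, so no direction of width can be given. Leaving out the sparse end, also added later, left the density at 4.11. No paired analysis was possible because each line has a single library.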
